A study of Macaca fascicularis with 4 samples.

Results

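The 38 HOX genes named in the count tables were described by cluster and by paralogue group in cynomolgus monkey (Macaca fascicularis) embryos. Every row whose gene name is HOX, then A, B, C or D, then digits only was taken as a member, which gave 38 of 26223 gene rows: 11 of the HOXA, 10 of the HOXB, 9 of the HOXC and 8 of the HOXD cluster, in all 4 libraries. Cells were captured in droplets and the 3′ ends of their transcripts sequenced, with 1 library for each of 4 ages: E24 (embryonic day 24) at Carnegie stage 11, E28 at stage 13, E31 at stage 14 and E37 at stage 18. No library carries a genotype change or a treatment per the labels. The dissected piece differed with the stage. At E24 the trunk was used after the yolk sac, the amnion, the heart with what lies anterior to it and the posterior growth zone had been cut away. At E28 and E31 the piece was the urogenital ridge (coelomic epithelium, mesonephros and some mesentery), and the hindlimb level and what lies posterior to it were removed. At E37 most mesonephros and mesentery was trimmed off as well, which left mainly the gonadal ridge with some mesonephros, putative adrenal and proximal mesentery. The E24 label names more than 1 embryo, and each stage is 1 library, so stage, dissection and library cannot be told apart and no difference between stages has a replicate check.

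HOX genes encode homeodomain transcription factors that give cells a position along the head to tail axis. They lie in 4 clusters, and genes at the matching place in each cluster form 1 of 13 paralogue groups, numbered from the 3′ end, which is active early and toward the head, to the 5′ end, which is active later and toward the tail. Most of the proteins bind DNA together with PBX and MEIS cofactors. In the trunk, groups of low number are known from the hindbrain and neck, middle groups from the chest, and groups 10 to 13 from the lumbar region, limbs, genital tract, kidney and tail.

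Levels are given as UMIs (unique molecular identifiers, each a captured transcript) per 1000000 UMIs of the same barcodes, abbreviated CPM. Transcript ends are counted, so a long gene gives no more UMIs than a short one, but the order of levels between genes also depends on how fully each 3′ end is annotated. All intervals are 95% and cover counting error only. A gene is called 2-fold higher or lower where its ratio of CPM is 2 or more in either direction and it has at least 20 UMIs over both libraries, which stands in for a test. Sums over a library do not tell fewer expressing cells from less RNA per cell.

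The libraries held 10639, 5028, 6661 and 5298 barcodes with 40243286 to 115332663 UMIs in all, and a median of 9990, 11391, 9766 and 6672.5 UMIs per barcode in order of stage. HOX genes gave 174305, 107947, 129069 and 44177 UMIs. Their summed level was 1511, 1728, 1787 and 1098 CPM. A HOX UMI was found in 98.5%, 99.1%, 99.0% and 95.9% of barcodes, and in 85.5%, 91.6%, 92.5% and 81.8% after thinning to 2000 UMIs per barcode. Erythroid barcodes, chosen by at least 4 of 8 red cell genes, served as a low-HOX reference. They had a HOX UMI in 50.5%, 46.8%, 46.7% and 18%, at much greater depth (medians of 24302, 31452, 28972 and 13780 UMIs), and a summed HOX level of 133, 159, 134 and 31.9 CPM. Compared with other barcodes, 34 of 35, 31 of 32, 31 of 32 and 33 of 33 counted members were 2-fold lower in them, beside 67.6%, 80.1%, 81.8% and 85.8% of all genes.

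**Figure D1:**
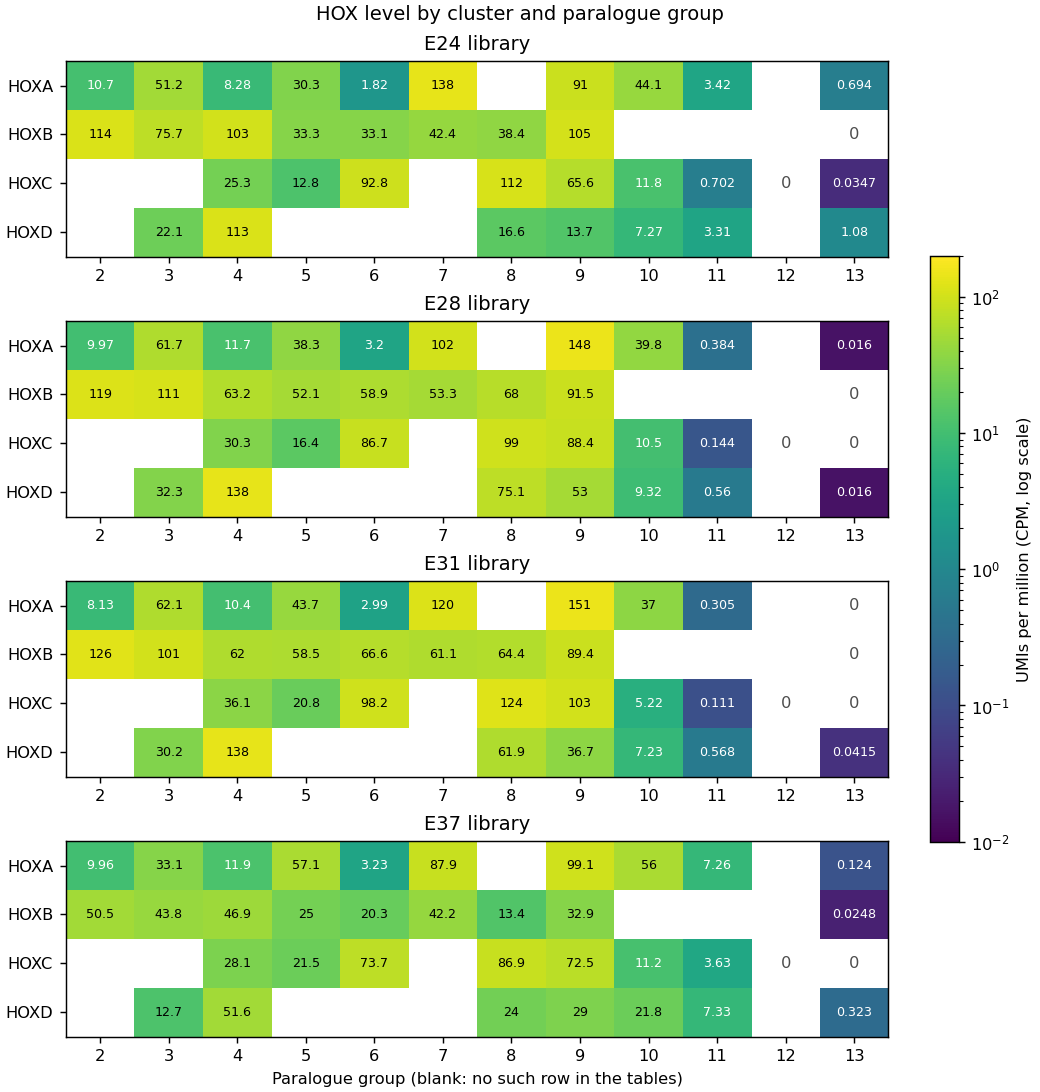
HOX level in each library as CPM (printed in each cell, with a log colour scale), by cluster (rows) and paralogue group (columns, 2 to 13); 0 marks a gene without a UMI and a blank cell marks a position with no such row. The group 11 cells read between 0.111 and 0.568 at E28 and E31, against 3.63 to 7.33 at E37.

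Between E24 and E28, HOXB1 and all counted genes of groups 11 and 13 were lower at E28, and HOXD8 and HOXD9 were higher. Of 35 members counted, 2 were 2-fold higher, against 18.6% of all genes counted, and 7 were 2-fold lower, against 6.72% of all genes. The median log2 ratio was 0.27 over members and 0.26 over all genes. Of the 7 lower genes, 5 were of groups 10 to 13.

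Between E28 and E31 the HOX levels were close. None of the 32 members counted was 2-fold higher (background 1.92%), and 1 was 2-fold lower (background 4.58%). That gene was HOXC10, with a ratio of 0.499 (0.439 to 0.568), and its call was lost under 4 other ways of scaling or choosing barcodes.

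From E31 to E37 the genes called lower were all of groups 1 to 9, and those called higher all of groups 10 and 11. Of 33 members counted, 12 were 2-fold lower (background 9.38%) and 5 were 2-fold higher (background 10.1%). Groups 10 and 11 had 6 counted genes, of which HOXA10 was not called. Of the 12 counted genes of groups 1 to 4, 7 were lower, and of the 15 of groups 5 to 9, 5 were lower. By cluster, 7 of 9 HOXB genes and 4 of 7 HOXD genes were lower, against 1 of 10 HOXA genes and 0 of 7 HOXC genes. The median log2 ratio was -1.32 for HOXB, -1.25 for HOXD, -0.36 for HOXC and 0.16 for HOXA, beside -0.04 for all genes counted. A gene that reaches 20 UMIs only through its high library had to differ, which holds here for HOXC11, and between E24 and E28 for HOXC11, HOXA13 and HOXD13.

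**Figure D2:**
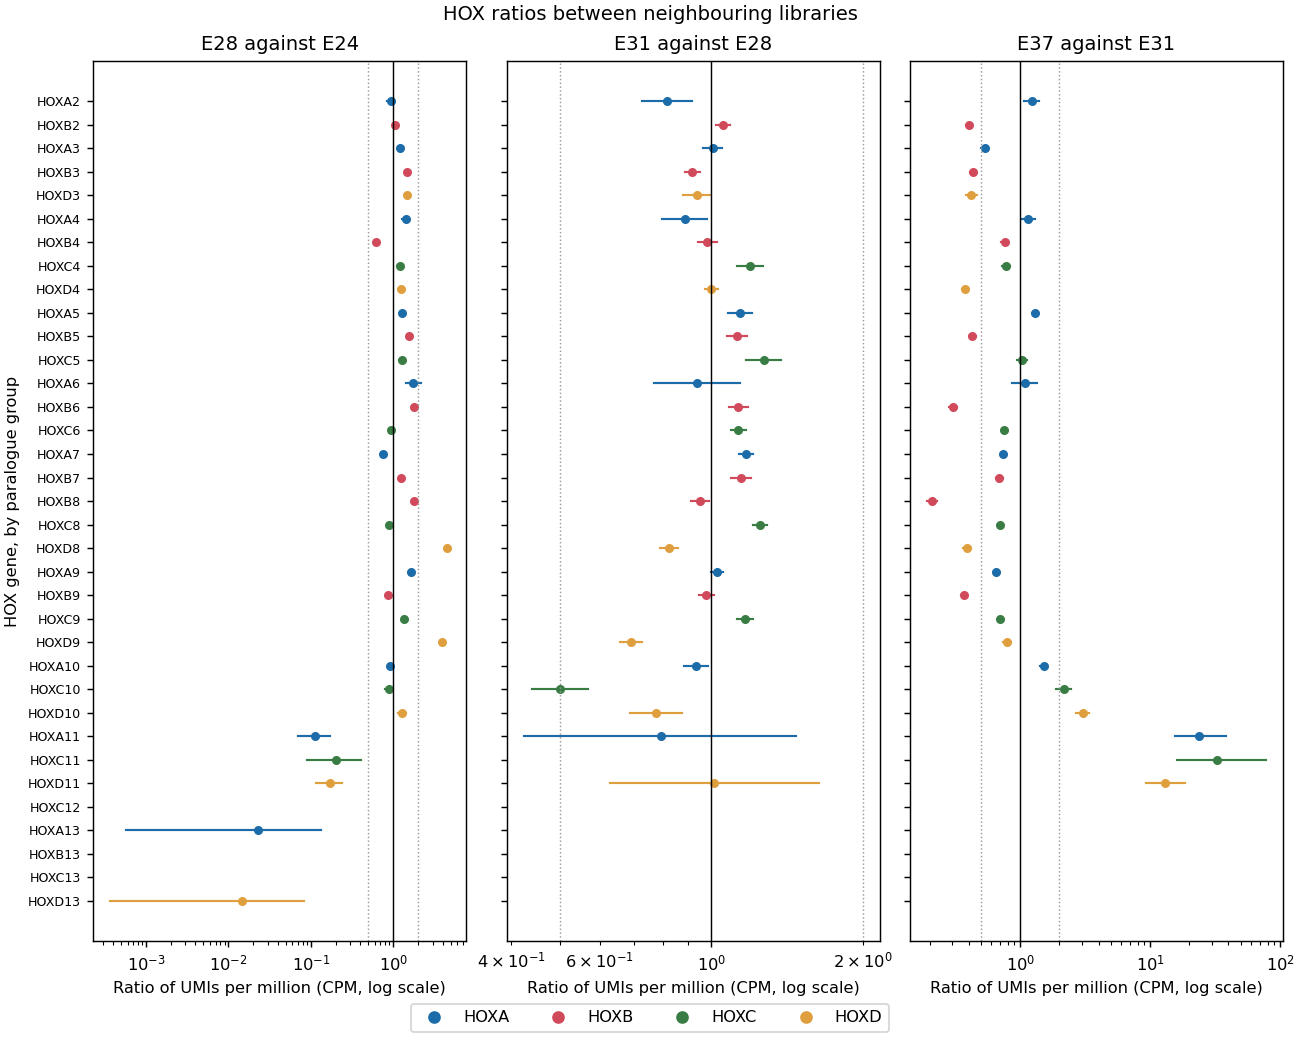
Ratio of CPM between neighbouring libraries for each HOX gene of groups 2 to 13 with at least 20 UMIs over both (log axes, each with its own range), with 95% counting intervals as bars and dotted lines at 2-fold. E31 against E28 stays within the dotted lines except for HOXC10 at 0.499, and E37 against E31 shows HOXB genes (red) mostly to the left of the HOXC genes (green).

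In group 1, HOXB1 was highest at E24 and HOXD1 at E28, and both were lowest at E37. HOXB1, known for the identity of a hindbrain segment, stood at 20.3, 6.35, 7.60 and 0.572 CPM in the 4 libraries in order of stage. HOXD1 followed another course, with 17.9, 30.2, 28.1 and 6.36 CPM. Thus at E28 HOXB1 was 3.19-fold lower (2.87 to 3.56) than at E24, while HOXD1 was 1.68 times as high (1.58 to 1.79) and below the 2-fold mark. At E37 both were lower than at E31, HOXB1 by 13.3-fold (8.77 to 21.2) and HOXD1 by 4.41-fold (3.87 to 5.05). Only 23 HOXB1 UMIs were left at E37.

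In groups 2 to 4 the genes called lower at E37 than at E31 were all of HOXB and HOXD, HOXB4 not among them. HOXB2, a hindbrain gene, stood at 114, 119, 126 and 50.5 CPM and was 2.50-fold lower at E37 than at E31 (2.38 to 2.62). HOXB3 stood at 75.7, 111, 101 and 43.8 CPM, a 2.31-fold lower level at E37. HOXD4 stood at 113, 138, 138 and 51.6 CPM, 2.67-fold lower at E37 (2.55 to 2.81). HOXA2, required in the second pharyngeal arch, was low throughout, with 10.7, 9.97, 8.13 and 9.96 CPM and no 2-fold step. HOXD3 was the other gene of these groups called lower at E37. HOXB4, a gene studied in blood stem cells, stood at 103, 63.2, 62.0 and 46.9 CPM, with each step below 2-fold. HOXA3, HOXA4 and HOXC4 stayed within 2-fold between all neighbouring libraries.

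Groups 5 to 8, which pattern the neck and chest, split by cluster. HOXB5, with a known role in enteric neural crest, stood at 33.3, 52.1, 58.5 and 25.0 CPM. HOXB6 stood at 33.1, 58.9, 66.6 and 20.3 CPM. HOXB8 showed the widest range of the 3, with 38.4, 68.0, 64.4 and 13.4 CPM. All were highest at E28 or E31, and all were lower at E37 than at E31, by 2.34-fold for HOXB5, by 3.28-fold for HOXB6 (3.05 to 3.54) and by 4.79-fold for HOXB8 (4.38 to 5.25). HOXB7 was not called in any comparison.

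The HOXC and HOXA genes of these groups stayed nearer to their earlier levels. HOXC6 stood at 92.8, 86.7, 98.2 and 73.7 CPM. HOXC8, which marks the chest and forelimb level, stood at 112, 99.0, 124 and 86.9 CPM. HOXC5 stood at 12.8, 16.4, 20.8 and 21.5 CPM, and its highest level was at E37. HOXA7 had the highest level of any member at E24, at 138 CPM, with 102, 120 and 87.9 CPM after that. HOXA5, known for its role in the lung, stood at 30.3, 38.3, 43.7 and 57.1 CPM, with each step below 2-fold, and HOXA6 stayed between 1.82 and 3.23 CPM. HOXD8 differed from these, with 16.6 CPM at E24, 75.1 at E28, 61.9 at E31 and 24 at E37. Its step from E24 to E28 was 4.52-fold up (4.29 to 4.77) and its step from E31 to E37 was 2.58-fold down (2.40 to 2.77).

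Group 9 carried the largest summed level of any group in each library, at 275, 381, 381 and 234 CPM. HOXA9, best known from blood progenitors, stood at 91.0, 148, 151 and 99.1 CPM and had the most UMIs of all members at E28, E31 and E37. HOXB9 stood at 105, 91.5, 89.4 and 32.9 CPM. HOXC9, which sets thoracic motor columns in the spinal cord, stood at 65.6, 88.4, 103 and 72.5 CPM. HOXD9 stood at 13.7, 53.0, 36.7 and 29.0 CPM. So HOXD9 was 3.87-fold higher at E28 than at E24 (3.65 to 4.12), beside its neighbour HOXD8, and HOXB9 was 2.72-fold lower at E37 than at E31 (2.56 to 2.88), while HOXA9 and HOXC9 stayed within 2-fold. HOXB9 made up 38.1% of group 9 UMIs at E24 and 14.1% at E37.

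In group 10, whose genes specify the lumbar level and, for HOXA10, the uterus, the summed level was highest at E37, with 63.2, 59.5, 49.5 and 89.1 CPM. HOXA10 stood at 44.1, 39.8, 37.0 and 56.0 CPM and was not called. HOXD10 stood at 7.27, 9.32, 7.23 and 21.8 CPM and was 3.02-fold higher at E37 than at E31 (2.71 to 3.37). HOXC10 stood at 11.8, 10.5, 5.22 and 11.2 CPM and was 2.15-fold higher at E37 (1.87 to 2.47), which brought it back to its level at E24.

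Group 11 was low in the middle libraries and highest at E37. Its genes are known for forming the metanephric kidney and the forearm, and HOXA11 also for the uterus. HOXA11 had 395, 24, 22 and 292 UMIs, or 3.42, 0.384, 0.305 and 7.26 CPM. HOXC11 had 81, 9, 8 and 146 UMIs, or 0.702, 0.144, 0.111 and 3.63 CPM. HOXD11 had 382, 35, 41 and 295 UMIs, or 3.31, 0.560, 0.568 and 7.33 CPM. Each of the 3 was low at E28 and E31, intermediate at E24 and highest at E37. Against E31, the E37 level was 23.8-fold higher for HOXA11 (15.4 to 38.6), 32.8-fold for HOXC11 (16.2 to 77.3) and 12.9-fold for HOXD11 (9.29 to 18.4). A group 11 UMI was found in 5.01%, 1.03%, 0.826% and 8.83% of barcodes, and in 1.42%, 0.159%, 0.195% and 3.23% after thinning. Of erythroid barcodes 1 had such a UMI in each library, or 1.05%, 2.13%, 2.22% and 0.901%, so the shares at E28 and E31 were not above that of the erythroid barcodes, which are deeper and rest on 1 barcode each. The group 11 UMIs leaned to KRT19 barcodes, which held 51.5% of them at E28 and 60.6% at E31, beside 20.8% and 20.5% of barcodes. At E31 HOXD11 was 9.18-fold higher in KRT19 barcodes than in other barcodes (4.38 to 21.0). PAX8 barcodes held 60.3% of group 11 UMIs at E28 and 32.4% at E31, beside 47.4% and 37.3% of barcodes.

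Groups 12 and 13 were nearly silent. HOXD13, which shapes digits and the hindgut end, had 125, 1, 3 and 13 UMIs, and HOXA13, with like roles, had 80, 1, 0 and 5. At E24 these were 1.08 CPM and 0.694 CPM. At E28 the single UMI of each gave a ratio to E24 of 0.0148 (0.000371 to 0.0838) for HOXD13 and 0.0231 (0.000577 to 0.132) for HOXA13. HOXC13 had 4 UMIs, all at E24, and HOXB13 had 1 UMI, at E37. HOXC12 had none in any library, which allows levels of up to 0.0260, 0.0480, 0.0415 and 0.0745 CPM, the level of 3 UMIs. HOXD12 is not among the gene names.

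The mean paralogue number, weighted by UMIs, was 5.78, 6.01, 6.0 and 6.53 in order of stage, and groups 9 to 13 gave 23.0%, 25.5%, 24.1% and 31.1% of HOX UMIs. By cluster, HOXA gave 28.5%, 25.1%, 25.7% and 33.8% of HOX UMIs. HOXB gave 37.4%, 36.1%, 35.6% and 25.1%. HOXC and HOXD gave 27.1% and 14% at E37, where HOXB no longer held the largest share. By summed level, HOXD was 1.74 times as high at E28 as at E24 (1.71 to 1.77), and HOXB was 2.31-fold lower at E37 than at E31 (2.26 to 2.36). Of the 38 members, 10 had their highest level at E24, 7 at E28, 10 at E31 and 10 at E37, and HOXC12 had none.

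Barcodes with at least 1 UMI of a marker were then compared. PAX8 marks the intermediate mesoderm and nephric tubules, KRT19 epithelia, LHX9 the gonadal ridge, PECAM1 the endothelium, SOX10 the neural crest and its glia, and SOX2 the neural tube and also crest-derived glia. These are groups of barcodes, not cell types, and 13.1%, 15.2%, 12.4% and 10.9% of barcodes held more than 1 of the markers. PAX8 was found in 520, 2383, 2487 and 121 barcodes, KRT19 in 6687, 1047, 1367 and 906, LHX9 in 15, 144, 67 and 619, PECAM1 in 334, 291, 383 and 230, SOX10 in 41, 62, 98 and 244, and SOX2 in 2582, 139, 205 and 315. The PECAM1 and SOX10 barcodes had 6 of 6 further markers at 2-fold or more over other barcodes in every library, and the PAX8 barcodes 4 or 5 of 7. In order of stage, the KRT19 barcodes had 5, 1, 2 and 4 of 5 further epithelial markers at that level, the LHX9 barcodes 1, 2, 3 and 3 of 6 gonadal markers, and the SOX2 barcodes 5, 0, 0 and 1 of 6 neural tube markers. The 15 LHX9 barcodes at E24 went against the label: the 6 further gonadal markers summed to 26.8 CPM there, beside 57.2 in other barcodes, with 3 at 0. KRT19 was in 62.9% of all barcodes at E24 and in 53.3% to 66.3% of erythroid barcodes, and erythroid genes reached 527 CPM in KRT19 barcodes at E37. From E28 on, 4 or 5 of 6 neural tube markers were at 0 in the SOX2 barcodes, and 77.0% to 82.7% of SOX10 barcodes also held SOX2, and 36.7% to 59.7% of SOX2 barcodes held SOX10, so the 2 groups share barcodes. PECAM1 barcodes also carried macrophage genes at 188 to 596 CPM. The part of these in the results below was not tested.

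**Figure D3:**
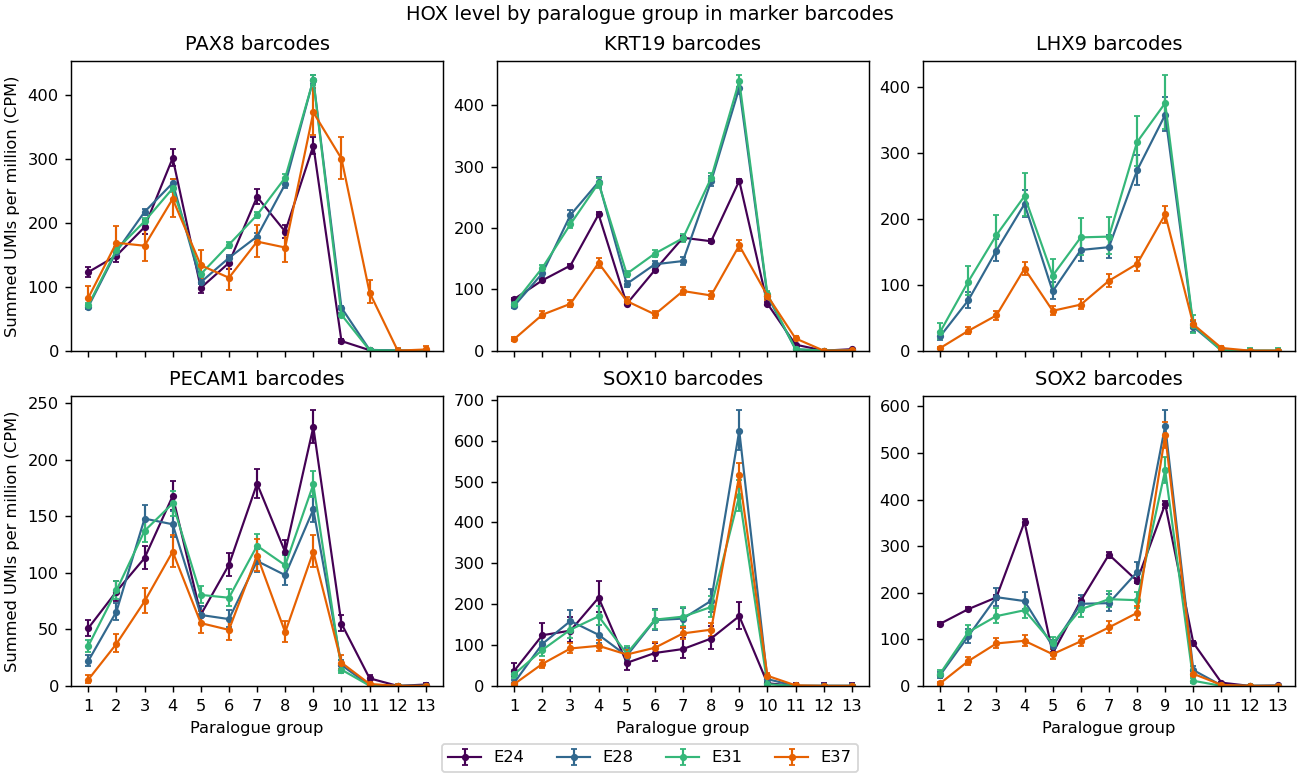
Summed CPM of each paralogue group (x axis, 1 to 13) in barcodes with at least 1 UMI of each marker, by library, with 95% counting intervals; the 15 LHX9 barcodes of E24 are left out. PAX8 barcodes at E37 reach 300.3 in group 10 and 90.8 in group 11, and SOX10 barcodes peak in group 9 at 465 to 625 from E28 on.

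PAX8 barcodes kept their summed HOX level while the posterior groups became a larger part of it. The sum was 1764, 1886, 1932 and 1997 CPM, and groups 9 to 13 gave 19.1%, 26.1%, 24.8% and 38.3% of it. The 3 members with most UMIs were HOXA7, HOXD4 and HOXB2 at E24, HOXA9, HOXD4 and HOXB2 at E28, HOXA9, HOXB2 and HOXA7 at E31, and HOXA10, HOXA9 and HOXB2 at E37. HOXA10 stood at 11.5, 48.5, 46.5 and 222 CPM, a 4.21-fold step at E28 (3.35 to 5.38) and a 4.78-fold step at E37 (4.15 to 5.49). HOXD10 stood at 1.52, 8.85, 5.14 and 53.8 CPM. HOXA11 had 3, 9, 7 and 50 UMIs in these barcodes, or 0.455, 0.284, 0.231 and 46.3 CPM. Group 11 as a whole stood at 0.758, 1.30, 0.758 and 90.8 CPM, a 119.9-fold difference between E31 and E37 (75.5 to 198). From E24 to E28, 6 of 31 members counted were 2-fold higher (background 18.1%), HOXD8, HOXD9, HOXD11 and the 3 group 10 genes, and 2 were lower (background 3.72%), HOXB1 among them. HOXD11 had 2 UMIs at E24 and 27 at E28, so it was counted only through E28, with a ratio of 2.81 (0.707 to 24.4). HOXC10 and HOXD10 had 13 and 10 UMIs at E24 and were likewise counted only through E28. From E28 to E31, 0 of 31 were higher (background 1.87%) and 1 was lower (background 3.88%), HOXC10. Of 33 members counted from E31 to E37, 7 were 2-fold higher (background 7.63%) and 2 were lower (background 14%). The lower genes were HOXB1 and HOXB8, and the higher genes outside groups 10 and 11 came to 1, HOXA6. HOXA11, HOXC11 and HOXD11 had 7, 2 and 14 UMIs at E31, so they were counted only through E37, where they were higher.

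Group 1 in PAX8 barcodes stood at 122.8, 68.6, 70.8 and 82.5 CPM, and HOXD1 at 46.2, 40.2, 35.6 and 56.5 CPM. HOXD1 gave 37.7% of group 1 UMIs there at E24 and 68.5% at E37. Compared with other barcodes of E37, PAX8 barcodes had 18 of 33 members 2-fold higher (background 7.48%) and 0 lower (background 15.2%). HOXD1 was 11.4-fold higher (8.37 to 15.2), HOXA11 7.50-fold (5.42 to 10.2), HOXC11 5.76-fold (3.40 to 9.28) and HOXA10 4.33-fold (3.77 to 4.95). At E24, 8 of 35 members were 2-fold lower in PAX8 barcodes (background 11.1%), all of groups 10 to 13, and 2 were higher (background 4.09%), HOXD1 and HOXB8. At E28 and E31, 3 and 1 of 32 were higher in PAX8 barcodes (backgrounds 6.39% and 6.99%), HOXB1 in both, and 0 lower (backgrounds 6.94% and 6.69%). At E37, PAX8 barcodes held 13.4% of group 11 UMIs and barcodes without any of the 6 markers held 69.4%, beside 2.28% and 65.3% of barcodes. PAX8 was found in 121 barcodes at E37, so each E37 value here rests on few barcodes.

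KRT19 barcodes had a summed HOX level of 1495, 1887, 1974 and 905 CPM. The 3 members with most UMIs were HOXA7, HOXC8 and HOXB2 at E24, HOXA9, HOXD4 and HOXB3 at E28, HOXA9, HOXD4 and HOXB2 at E31, and HOXA9, HOXA7 and HOXA10 at E37. HOXD genes were higher at E28 than at E24, with HOXD8 at 19.1 and 115 CPM (6.04-fold, 5.63 to 6.48), HOXD9 at 16.6 and 75.5 CPM and HOXD1 at 16.1 and 48.2 CPM. Of 35 members counted in that comparison, 4 were higher (background 14.3%) and 7 lower (background 8.25%). From E28 to E31, 0 of 32 were higher (background 1.98%) and 0 lower (background 3.4%). From E31 to E37, 17 of 33 members were lower (background 10.5%) and 3 higher (background 6.57%), the 3 being HOXA11, HOXC11 and HOXD11. Of these, HOXA11 and HOXC11 were counted only through E37. HOXC11 had 8 UMIs in all barcodes of E31. The 3 genes together had 43 UMIs in KRT19 barcodes of E31, most of them HOXD11, which left HOXA11 below the minimum count. HOXB8 stood at 63.8 CPM at E31 and 7.58 at E37, 8.42-fold lower (6.52 to 11.1), and HOXB9 at 87.7 and 16.6 CPM. HOXA10 remained near its earlier level, with 53.4, 60.9, 67.1 and 59.9 CPM. At E31, KRT19 barcodes had 7 of 32 members 2-fold higher than other barcodes (background 2.59%), among them HOXD8, HOXD9 and the 3 group 10 genes, and 0 lower (background 5.32%). At E24, 8 of 35 were higher (background 9.3%), all of groups 9 to 13, and 0 lower (background 4.67%). At E28, 3 of 32 were higher (background 2.56%) and 0 lower (background 6.1%), and at E37, 2 of 33 were higher (background 4.75%) and 1 lower (background 10.4%), HOXB9.

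In LHX9 barcodes HOXB genes were low at E37: the 8 counted, HOXB2 to HOXB9, were all 2-fold lower than at E31. From E31 to E37, 16 of 27 members were 2-fold lower (background 5.51%) and 1 was higher (background 11.6%), HOXC10, at 1 and 19 UMIs with a ratio of 3.41 (0.542 to 142). HOXC10 reached 20 UMIs there only through E37, and its interval includes 1. From E28 to E31, 0 of 28 were higher (background 1.95%) and 1 lower (background 4.25%). This was HOXC10, at 21 and 1 UMIs, which was counted only through E28. From E24, with its 15 barcodes, to E28, 12 of 26 were higher (background 20.2%) and 4 lower (background 7.97%). Each of the 12 had 15 or fewer UMIs at E24 and reached 20 UMIs only through E28. HOXB9 stood at 43.8, 58.0 and 5.51 CPM at E28, E31 and E37, and HOXB8 at 39.6, 40.9 and 2.45 CPM. The HOXB9 level was 10.5-fold lower at E37 than at E31 (6.48 to 17.5), and the HOXB8 level 16.7-fold lower (8.50 to 35.3). HOXD9 stayed near 60.3, 58.0 and 54.9 CPM in the same libraries. Compared with other barcodes of E37, LHX9 barcodes had HOXD8 2.40-fold higher (2.06 to 2.78) and HOXD9 2.16-fold higher (1.87 to 2.47), the only 2 of 33 (background 3.7%), while 15 were lower (background 12.4%). At E28 and E31, 0 of 32 were higher (backgrounds 4.02% and 6.05%) and 5 lower in each (backgrounds 19.2% and 22.3%), and in the 15 barcodes of E24, 1 of 35 was higher (background 12%) and 21 lower (background 38.3%). The 3 members with most UMIs were HOXC8, HOXD4 and HOXA9 at E28, HOXC8, HOXA9 and HOXD4 at E31, HOXC8, HOXA7 and HOXC9 at E37, and HOXB2, HOXB4 and HOXA7 in the 15 barcodes of E24. HOXA11 had 0, 0, 0 and 4 UMIs in LHX9 barcodes.

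**Figure D4:**
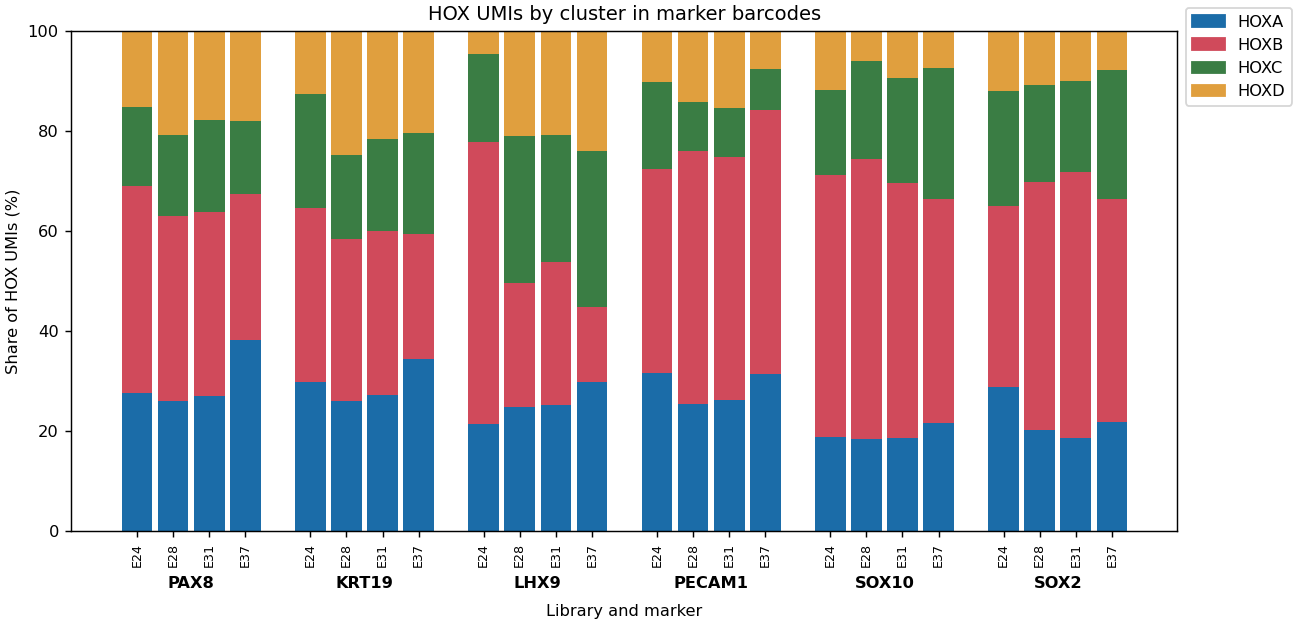
Share of HOX UMIs (%) from the HOXA, HOXB, HOXC and HOXD clusters in barcodes with at least 1 UMI of each marker, by library; each bar sums to 100. At E37 the HOXB share is 53.0% in PECAM1 barcodes and 14.9% in LHX9 barcodes.

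PECAM1 barcodes had the lowest summed HOX level of the 6 marker groups from E28 on and leaned to the HOXB cluster. The sum was 1175, 884, 1000.2 and 645 CPM, and HOXB genes gave 40.8%, 50.6%, 48.7% and 53.0% of it. With at least 2 PECAM1 UMIs required, the HOXB share was 51.9%, 56.4%, 53.5% and 57.0%. HOXB4 stood at 84.2, 64.3, 63.8 and 76.5 CPM and HOXB7 at 53.2, 55.2, 65.0 and 65.4 CPM, so both were near their earlier levels at E37. HOXC6 was at 61.3, 20.5, 22.7 and 12 CPM and HOXC8 at 63.0, 23.6, 31.0 and 12.4 CPM. HOXC6 was 3.00-fold lower at E28 than at E24 (2.35 to 3.85), and HOXC8 was 2.51-fold lower at E37 than at E31 (1.68 to 3.86). Of 29, 27 and 27 members counted from E24 to E28, E28 to E31 and E31 to E37, 0 were higher in each (backgrounds 7.26%, 1.94% and 3.81%), and 8, 0 and 11 were lower (backgrounds 4.36%, 2.41% and 5.95%). Compared with other barcodes, 0 members were 2-fold higher in any library (backgrounds 11.7%, 10.2%, 10.6% and 11.2%), and 3 of 35, 21 of 32, 16 of 32 and 20 of 33 were lower (backgrounds 13.5%, 18.4%, 15.5% and 19.5%). The 3 members with most UMIs were HOXA7, HOXA9 and HOXB4 at E24, HOXB3, HOXA9 and HOXB4 at E28, HOXA9, HOXB3 and HOXB2 at E31, and HOXB4, HOXA9 and HOXB7 at E37.

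From E28 on, group 9 had the highest summed level of any paralogue group in SOX10 barcodes, and HOXB9 the highest within it. Group 9 stood at 171, 625, 465 and 515 CPM in order of stage. HOXB9 stood at 111, 353, 250.1 and 219.5 CPM, and HOXC9 at 25.8, 121, 107 and 172 CPM. HOXD9 stayed at 4.83, 4.84, 2.44 and 7.81 CPM. HOXB9 was the member with most UMIs from E28 on, followed by HOXA9 and HOXC9 in either order, and at E24 the 3 with most were HOXB4, HOXB2 and HOXB9. Against other barcodes HOXB9 was 4.06-fold higher at E28 (3.64 to 4.51), 2.89-fold at E31 (2.57 to 3.24) and 10.2-fold at E37 (9.08 to 11.4), where HOXB8 was 5.47-fold and HOXC9 2.59-fold higher. From E28 on these were the only members called higher, 1 of 32, 1 of 32 and 3 of 33 (backgrounds 6.33%, 6.1% and 7.42%), and 14, 8 and 12 were lower (backgrounds 26.8%, 24.8% and 20.8%). At E24, with 41 barcodes, 0 of 35 were higher (background 6.72%) and 19 lower (background 31.1%). Groups 9 to 13 gave 17.2%, 39.0%, 31.3% and 44.2% of HOX UMIs, nearly all of it group 9, since groups 10 and 11 stood at 24.7 and 1.30 CPM at E37. From E24 to E28, 9 of 20 were higher (background 14.1%), HOXB9 by 3.18-fold (2.45 to 4.18), and 2 lower (background 5.28%). From E28 to E31, 1 of 21 was higher (background 2.04%) and 0 lower (background 3.77%). From E31 to E37, 2 of 24 members were higher (background 8.01%) and 4 lower (background 2.97%).

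SOX2 barcodes at E24, 24.3% of that library, were a different group from those of later stages. Their summed HOX level was 2090 CPM at E24, the highest of the 6 groups in that library, and 1779, 1554 and 1259 CPM after that. At E24 HOXA7 stood at 228 CPM, HOXB9 at 171 and HOXC8 at 160.5, the 3 with most UMIs. HOXB9 then led with 286, 282 and 222 CPM, followed by HOXA9 and HOXB3 at E28, HOXB2 and HOXB7 at E31, and HOXC9 and HOXA9 at E37. Group 1 stood at 133, 23.1, 26.2 and 5.32 CPM. HOXB1 was 12.4-fold lower at E28 than at E24 (5.70 to 34.0), among 10 of 32 members lower (background 11.7%) and 4 higher (background 15.6%). From E28 to E31, 0 of 27 were higher (background 1.4%) and 3 lower (background 4.16%), HOXD9, HOXA10 and HOXC10. From E31 to E37, 2 of 26 were higher (background 6.87%), HOXC9 and HOXA10, and 7 lower (background 4.35%). Against other barcodes, 5 of 35, 1 of 32, 1 of 32 and 3 of 33 were higher (backgrounds 4.13%, 5.19%, 5.11% and 7.7%) and 2, 8, 9 and 12 lower (backgrounds 10.8%, 16.9%, 19.1% and 19.7%), and HOXB9 was among the higher genes in each library.

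**Figure D5:**
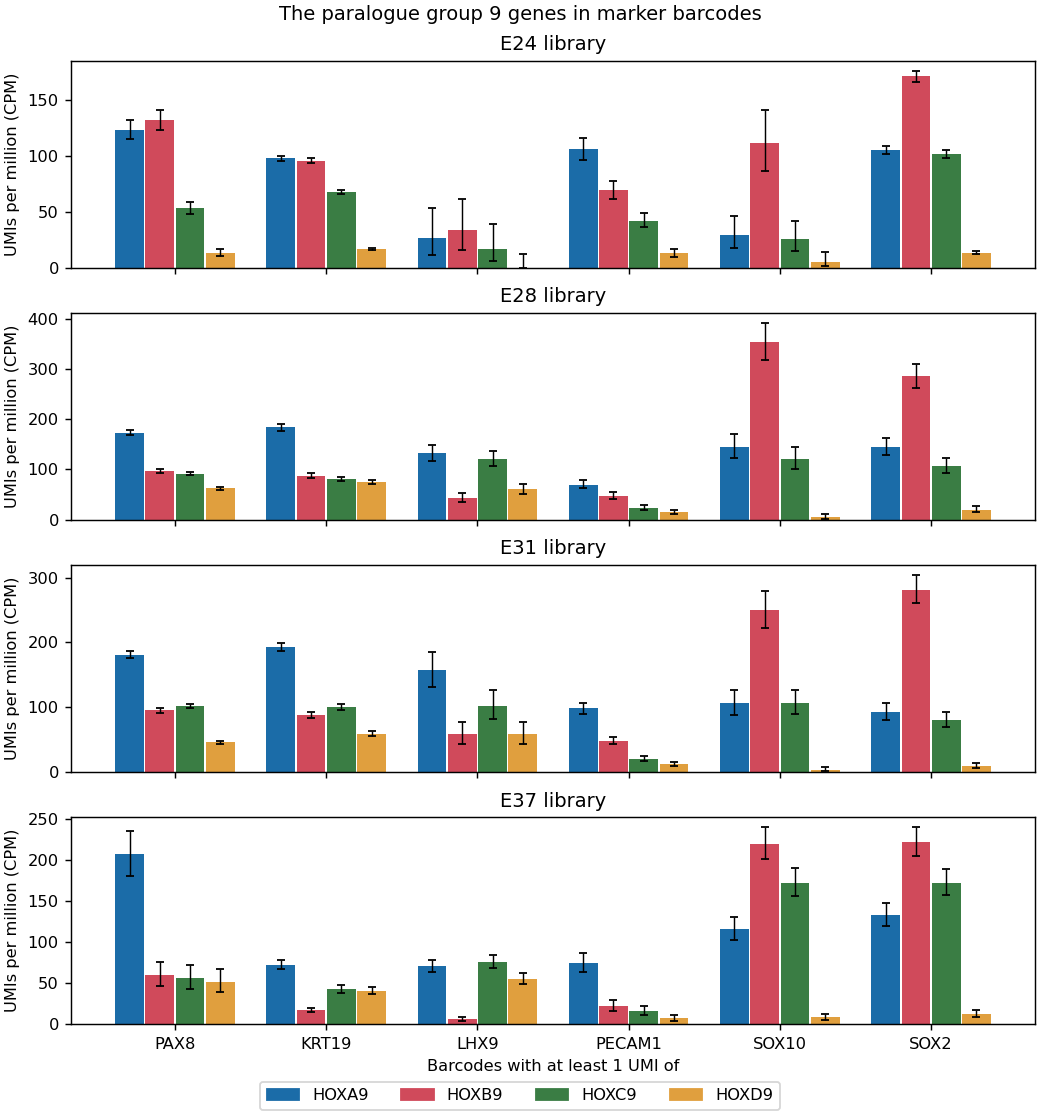
CPM of HOXA9, HOXB9, HOXC9 and HOXD9 in barcodes with at least 1 UMI of each marker, 1 panel per library, with 95% counting intervals. HOXB9 is the tallest bar in SOX10 and SOX2 barcodes of every library, and at E37 it is 5.51 in LHX9 barcodes beside 54.9 for HOXD9.

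The 4 group 9 genes thus differed by marker at E37. HOXB9 gave 42.6% of group 9 UMIs in SOX10 barcodes and 2.67% in LHX9 barcodes. HOXD9 gave 1.52% and 26.6% in the same groups. HOXA9 gave 62.6% in PECAM1 barcodes and 55.5% in PAX8 barcodes. In PAX8, SOX10 and SOX2 barcodes the HOXB9 level at E37 was within 2-fold of that at E31, while it was 2-fold lower or more in KRT19, LHX9 and PECAM1 barcodes. Those differences between marker groups were not tested.

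The most 5′ paralogue group with a UMI gives each barcode an upper position, and depends on depth. As deposited, it was group 9 in 42.0%, 56.5%, 56.4% and 39.5% of barcodes and group 10 or above in 20.6%, 22.1%, 18% and 24.1%. After thinning to 2000 UMIs, group 10 or above was found in 9.30%, 8.39%, 6.70% and 14.2%. In PAX8 barcodes the thinned share was 2.31%, 9.44%, 7.12% and 42.1%, and in SOX10 barcodes 0%, 1.61%, 1.02% and 3.69%. In erythroid barcodes it was 0%, 2.13%, 0% and 0%, at medians of 13780 to 31452 UMIs before thinning.

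Posterior genes were often found in the same barcodes. At E37, 223 barcodes held HOXA11, and 87.4% of them also held HOXA10, against 15.3% of those without HOXA11. HOXD10 was in 57.0% of them against 8.89%, and HOXD11 in 30.0% against 3.59%. After thinning, 65 barcodes held HOXA11, with HOXA10 in 61.5% of them against 8.10%. The depths were near each other, with medians of 7694 and 6637 UMIs. At E24, HOXA13 was in 68 barcodes, of which 22.1% held HOXD13 against 0.804% of the others, and 79.4% held HOXA10 against 16.9%. HOXB9 was in 71.4%, 64.0%, 62.2% and 19.7% of HOXA9 barcodes as deposited, and in 29.7%, 21.3%, 19.5% and 9.29% after thinning.

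Other genes of HOX regulation showed few 2-fold steps outside the upstream factors. Of 9 cofactor genes, PBX2 and MEIS3 were higher at E28 than at E24, at 2.42-fold and 2.24-fold, none was called at E31, and MEIS3 was at 2.01-fold at E37. The shares of all genes called in these comparisons are those given above, and 2 of 9 is near the 18.6% of all genes higher at E28. None of the 15 polycomb and trithorax genes in the tables, of 16 listed, was called in any comparison, nor was geminin. Among 10 of 13 upstream regulators found, CDX1, CDX2, CDX4 and RARG were lower at E28 than at E24. CDX2, a caudal activator of posterior HOX genes, stood at 82.1, 0.304, 0.512 and 0.0497 CPM, and CDX4 at 45.8, 2.93, 3.79 and 0.298 CPM. ALDH1A2, which makes retinoic acid, stood at 20.03, 64.7, 63.8 and 92.3 CPM, and EGR2 was called in all 3 comparisons, higher at E28, lower at E31 and higher at E37. Genes listed for axial position moved as well: of the 7 counted axial genes, T, TBX6, CDX2, PITX1, TBX4 and TBX5 were lower at E28 than at E24. T, listed as a tail bud gene, had 1266 UMIs at E24 and 15 at E28. The protocol removes the growth zone, and which cells of the piece held T was not tested. PITX1, a hindlimb gene, stood at 86.8, 3.01, 3.72 and 1.07 CPM. These levels moved with those of groups 11 and 13 from E24 to E28, and PITX1 did not from E31 to E37, while TBX5, a forelimb gene, had 3 and 20 UMIs in those libraries, an 11.97-fold difference (3.55 to 62.9). Their part in the HOX differences was not tested.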

How the data were processed

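Per the labels, droplet 3′ libraries were made, with v2 chemistry and v3 kits both named. Cell Ranger 2.1.0 is named in the submitters' processing notes. No source used here gives the genome build or annotation. Values were deposited as unnormalized counts of UMIs for each gene in each barcode. A row without a name (1) held 0 UMIs. All deposited barcodes were used, no doublet caller was run, and 370 of 27626 barcode sequences were shared by some pair of libraries. Counts were summed over barcodes and scaled to CPM. Levels have exact Poisson, ratios exact conditional binomial and shares exact (Clopper-Pearson) 95% intervals, for counting error only. A gene without a UMI is bounded by 3 UMIs. With 1 library per stage there is no test. The ratio script was tested on simulated data. Software was Python 3.11.15, numpy 2.4.6, scipy 1.17.1, pandas 2.3.3 and matplotlib 3.10.9.

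Members, marker lists, pathway lists and rules were chosen with earlier results of these data known. Values in every library are given for the member with most UMIs in each paralogue group, for the 5 largest and 5 smallest ratios in each comparison (by the interval bound nearest 1), and for members at 0 in a library. In marker barcodes the 3 members with most UMIs are named. All 38 members were found in the RefSeq gene table of assembly T2T-MFA8v1.1, used for names and neighbours only. There, 18 members overlap another member in 17 pairs, such as HOXB8 with HOXB9, HOXD10 with HOXD11 and HOXC genes among themselves; no source used here says how reads in overlaps were assigned, so their levels are uncertain. HOXA11, HOXC11 and HOXA9 are in no such pair. Values of some single genes are not reported here.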

Additional observations from a re-analysis of the deposited data

Results flagged for a closer look

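Some HOX genes moved 2-fold or more in opposite directions in barcodes of different markers under the same comparison of stages, with 1 library per stage. These differences were not tested. Ratios are of CPM.

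From E24 to E28, the 3 group 10 genes were higher in PAX8 barcodes and lower in PECAM1 and SOX2 barcodes. HOXA10 had ratios of 4.21, 0.385 and 0.351 in the 3 groups, HOXC10 of 4.97, 0.202 and 0.416, and HOXD10 of 5.84, 0.290 and 0.364. In PAX8 barcodes of E24, HOXC10 and HOXD10 had 13 and 10 UMIs. HOXC6 had a ratio of 3.04 in LHX9 barcodes and 0.334 in PECAM1 barcodes, and HOXC8 of 3.26 and 0.375, but the LHX9 group at E24 had 15 barcodes, with 3 of 6 further gonadal markers at 0. HOXC6 and HOXC8 had 11 and 15 UMIs in those 15 barcodes. HOXD1 had a ratio of 3.00 in KRT19 barcodes and 0.490 in SOX2 barcodes. From E31 to E37, HOXC9 had a ratio of 2.17 in SOX2 barcodes and 0.424 in KRT19 barcodes. The SOX2 barcodes of E24 had 5 of 6 neural tube markers at 2-fold or more over other barcodes and those of E28 none, with 4 of the 6 at 0.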

How the results depend on the processing

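No paired analysis was possible because each stage has 1 library. No ratio between whole libraries of a member called 2-fold changed direction under any alternative. Ratios and calls within marker barcodes, or against other barcodes, were not recomputed under the alternatives. Ratios of members not called were not checked for a change of direction. The number of members 2-fold higher at E28 than at E24 was 8 with a 1.5-fold rule in place of 2. The number 2-fold higher at E31 than at E28 was 1 without a minimum count. The 1 gene lower at E31 than at E28, HOXC10, was not called with median-ratio size factors, without the 5% of barcodes with most UMIs, after thinning to 2000 UMIs or with the mean of barcode CPM (0 genes each), and without a minimum count the number was 2. The number higher at E37 than at E31 was 8 without a minimum count. The other counts between whole libraries stayed within 1.5 times of those reported. Of the log2 ratios of single members under alternatives, 389 stayed within their counting interval and 111 left it; of the shares of groups 9 to 13 in marker barcodes, 56 and 39; of the mean paralogue numbers, 2 and 6. Median-ratio scaling moved the median log2 ratio of all genes from 0.26 to 0.02 for E28 against E24 and by less than 0.1 elsewhere. For the cluster shares in marker barcodes, a rule of at least 2 marker UMIs and one leaving out barcodes with more than 1 marker were added after the data were seen; 68 shares stayed within their interval and 120 did not. Depth is lowest at E37, where 3 UMIs are 0.0745 CPM against 0.0260 to 0.0480 CPM in the other libraries.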

Other observations

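At E24, barcodes with a UMI of an end group differed from the other barcodes in axial genes. The sets overlapped: 265 barcodes held both a group 1 and a group 11 UMI, and T and CDX4 were higher with either group. The 5045 barcodes with a group 1 UMI had more T and TBX6 than the others, at 7.27-fold (6.10 to 8.71) and 6.42-fold (5.44 to 7.63), and 4.19-fold more CDX4. The 533 barcodes with a group 11 UMI had 5.36-fold more T, 4.58-fold more CDX4, 4.39-fold more CDX2 and 4.46-fold more PITX1, and less PAX8, at a ratio of 0.198 (0.105 to 0.340). The 157 barcodes with a group 13 UMI had 12.1-fold more TBX4 (6.08 to 22.3), from 13 UMIs, and 4.34-fold more PITX1, both hindlimb genes, and 2.99-fold more GATA3, while T stood at a ratio of 1.35 (0.916 to 1.93) and PAX8 at 0 UMIs. At E37, the 468 barcodes with a group 11 UMI had 7.98-fold more PAX8 (5.77 to 11), 7.87-fold more PAX2, 4.81-fold more PITX1, from 14 UMIs, 1.86-fold more WT1 and 1.75-fold more MEIS2. They had less LHX9 and GATA4, gonadal genes, at ratios of 0.264 and 0.102, and no LHX1 UMI. Median depths were 11061 and 7093 UMIs in the group 11 barcodes of E24 and E37.

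A split of the 121 PAX8 barcodes of E37 was chosen after their values were seen and is a description only. A group 1 and a group 11 UMI were both present in 35 of them, group 1 alone in 18, group 11 alone in 13 and neither in 55, at medians of 8317, 8268.5, 8620 and 7015 UMIs. LHX1, a gene of the nephric duct and forming tubules, stood at 165 CPM (108 to 242) in the 18 and had no UMI in the 35 or the 13. EMX2 stood at 120.5 CPM in the 18 and had no UMI in the 35, and EPCAM, an epithelial gene, stood at 247 CPM against 18.1. WT1 stood at 206, 184, 190.2 and 68.3 CPM in the 35, the 18, the 13 and the 55. With 3 UMIs as the limit, no UMI allows levels of up to 9.07 CPM in the 35 and 21.9 CPM in the 13.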
